A study of Homo sapiens with 4 samples.

Results

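The zinc finger gene clusters of chromosome 19 were examined as 3 regions of the human genome (build hg19). They were the 19p12 cluster from 20000001 to 24400000, the proximal 19q13 cluster from 52000001 to 54000000 and the distal 19q13 cluster from 56500001 to 59000000. The deposited table holds 956365 windows of 500 bp, of which 34905 are on chromosome 19, and the members were the 1232 windows of this table that lie in the 3 regions. Of these, 321 were in the 19p12 cluster, 373 in the proximal 19q13 cluster and 538 in the distal 19q13 cluster. A window that is in the table is called listed below, and the share of listed windows among all windows without an undetermined base is called the listed share.

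The libraries came from FADU (FaDu), an established cell line from a squamous cell carcinoma of the human hypopharynx. There was 1 library for each of 4 conditions: scrambled control under normoxia, TET1-si under normoxia, scrambled control under hypoxia and TET1-si under hypoxia. Hypoxia was 1% oxygen, for 18 h in the control and 19 h in the knockdown. The knockdown was by a short hairpin RNA from a lentiviral vector, with a scrambled vector as control. TET1 is a dioxygenase that converts 5-methylcytosine (5mC) to 5-hydroxymethylcytosine (5hmC). The titles name the assay hMeDIP-seq, whereas the labels' protocol names an antibody to 5-methylcytidine and the methods of the study a chemical tag on 5hmC, so the mark behind the windows is uncertain. The 4 value columns of the table carry names that could not be tied to a library. They were not used, so no value is given for hypoxia or TET1 knockdown, and the analysis rests on where the listed windows lie. A position belongs to all libraries together, and with no replicate the comparisons below have no test. Read depth is therefore not given. The file's name mentions a minimum, so reads may also have fallen in windows outside the table.

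Most genes of these clusters encode C2H2 zinc finger proteins with a KRAB domain, which recruits the corepressor TRIM28 (KAP1) and silences chromatin at the sites the fingers bind. Many of these sites lie in retroelements, and the clusters grew by tandem duplication, so that neighbouring genes resemble each other. The fingers are encoded in the last coding exon as an array of repeats joined by a conserved linker with the amino acids TGEKP. The zinc finger exons are also known for a chromatin of their own, in which H3K9me3 and H3K36me3 lie together. The promoters of several genes in the distal 19q13 cluster are known to be methylated in carcinomas, including those of the head and neck.

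The sequences below were read from the GRCh37 reference, which has the coordinates of hg19 on this chromosome. The first set shows 300 bases of last coding exons, each written along the coding strand, with the codons of TGEKP linkers in capitals. It was chosen because it holds the repeated unit of the zinc finger arrays. ZNF582 (chr19:56895701-56896000, minus strand) is from a listed window with 8 CpG sites, the last one before an unlisted stretch described below. ZNF583 (chr19:56935001-56935300, plus strand) lies within that stretch, in an unlisted window with 2 CpG sites. ZNF615 (chr19:52496701-52497000, minus strand) is from an unlisted window of the proximal 19q13 cluster with 11 CpG sites.
ZNF582: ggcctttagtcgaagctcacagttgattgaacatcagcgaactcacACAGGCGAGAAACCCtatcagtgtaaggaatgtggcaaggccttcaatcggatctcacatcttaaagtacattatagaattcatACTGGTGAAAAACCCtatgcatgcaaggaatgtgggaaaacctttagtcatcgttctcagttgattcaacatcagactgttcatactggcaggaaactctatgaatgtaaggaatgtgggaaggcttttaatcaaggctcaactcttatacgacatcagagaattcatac
ZNF583: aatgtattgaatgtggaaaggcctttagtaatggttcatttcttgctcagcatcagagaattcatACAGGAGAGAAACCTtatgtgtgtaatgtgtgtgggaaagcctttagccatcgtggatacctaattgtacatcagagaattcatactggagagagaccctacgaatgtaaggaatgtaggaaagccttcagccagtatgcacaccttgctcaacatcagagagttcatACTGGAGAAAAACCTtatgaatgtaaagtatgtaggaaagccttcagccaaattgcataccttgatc
ZNF615: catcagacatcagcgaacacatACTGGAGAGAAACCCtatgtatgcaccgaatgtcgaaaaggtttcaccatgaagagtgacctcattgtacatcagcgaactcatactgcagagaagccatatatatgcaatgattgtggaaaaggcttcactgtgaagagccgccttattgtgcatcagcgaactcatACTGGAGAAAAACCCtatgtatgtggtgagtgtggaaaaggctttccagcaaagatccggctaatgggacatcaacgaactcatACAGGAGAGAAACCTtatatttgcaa

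The linker repeats within and between these exons with few changes. In all windows of the clusters 952 linkers were found in 94 DNA encodings, and ACTGGAGAGAAACCC, the commonest, accounted for 248 of them (26.1%). The second, ACTGGAGAGAAACCT, accounted for 230 (24.2%). Neither contains a CpG site.

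The second set shows 200 bases of promoters along the strand of the gene, with CpG sites in capitals. Of the genes known to be methylated in tumours, ZSCAN18 (chr19:58609599-58609798, minus strand), ZNF132 (chr19:58951521-58951720, minus strand) and ZNF154 (chr19:58220573-58220772, minus strand) are shown from the base before the start site, in windows that were not listed. ZIK1 (chr19:58094778-58094977, plus strand) is shown from 735 to 536 bases upstream of its start site, in a listed window with 29 CpG sites. ZNF91 (chr19:23578274-23578473, minus strand) lies next to the start site of a repressor of retroelements in the 19p12 cluster, also in a window that was not listed.
ZSCAN18: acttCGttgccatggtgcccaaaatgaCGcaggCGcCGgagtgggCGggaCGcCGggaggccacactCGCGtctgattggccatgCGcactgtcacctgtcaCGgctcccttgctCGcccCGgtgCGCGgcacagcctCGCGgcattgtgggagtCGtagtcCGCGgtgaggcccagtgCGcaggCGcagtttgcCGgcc
ZNF132: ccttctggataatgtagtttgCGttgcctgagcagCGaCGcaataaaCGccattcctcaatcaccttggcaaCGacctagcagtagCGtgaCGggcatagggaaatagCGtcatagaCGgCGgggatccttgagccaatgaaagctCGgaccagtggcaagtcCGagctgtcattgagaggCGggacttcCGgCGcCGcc
ZNF154: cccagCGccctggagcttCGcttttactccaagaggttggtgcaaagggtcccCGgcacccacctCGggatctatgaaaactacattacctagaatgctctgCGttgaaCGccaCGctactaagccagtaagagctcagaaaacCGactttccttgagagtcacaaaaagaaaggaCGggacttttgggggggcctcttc
ZIK1: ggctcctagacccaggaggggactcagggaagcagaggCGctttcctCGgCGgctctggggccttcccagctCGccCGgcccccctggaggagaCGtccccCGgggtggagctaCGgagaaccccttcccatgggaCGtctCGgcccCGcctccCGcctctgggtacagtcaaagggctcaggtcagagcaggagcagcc
ZNF91: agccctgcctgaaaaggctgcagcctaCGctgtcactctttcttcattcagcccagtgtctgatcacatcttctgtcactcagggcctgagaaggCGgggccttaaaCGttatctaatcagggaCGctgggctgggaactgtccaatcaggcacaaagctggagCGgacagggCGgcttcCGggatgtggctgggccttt

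The 200 bases of ZSCAN18 hold 23 CpG sites, those of ZNF132 16, those of ZIK1 12, those of ZNF154 9 and those of ZNF91 7. The piece of ZIK1 lies farther upstream than the others, and the start window of ZIK1 was not listed.

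Few windows of the zinc finger clusters were listed. The listed share was 6.96% of 17699 windows (95% Wilson interval 6.60 to 7.35), against 35.9% in the rest of chromosome 19 and 17.3% on the other autosomes. The intervals cover counting error only and take no account of the likeness of neighbouring windows. Whether intervals overlap is therefore given below as a description and not as a test. The clusters have fewer CpG sites, with a mean of 6.36 per window against 10.0 in the rest of the chromosome, and a lower GC content, 43.1% against 49.3%. From windows of the rest of chromosome 19 matched for number of CpG sites and for GC content in steps of 25 bases, 20.6% of the cluster windows would be listed. The ratio of listed to predicted share was 0.338 (0.320 to 0.357).

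The 3 clusters differed among themselves. The 19p12 cluster, on the short arm next to the centromere, had a listed share of 3.69% (3.31 to 4.11) of 8699 windows and a ratio of 0.236. In the proximal 19q13 cluster the share was 9.33% (8.46 to 10.3) of 4000 windows, with a ratio of 0.389. The distal 19q13 cluster, which reaches close to the end of the long arm, had 10.8% (9.93 to 11.6) of 5000 windows and a ratio of 0.406. The interval of the 19p12 cluster lay below the others, and those of the proximal and distal 19q13 clusters overlapped.

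Reads with up to 3 mismatches had been kept where they had a single best place in the genome, and the clusters are repetitive. When 5 sequences of 50 bases were sampled from each window and searched in the genome, all 5 had no other exact match in 67.9% of the cluster windows, against 69.4% in the rest of chromosome 19. By cluster this share was 64.5%, 69.2% and 72.8%, in the order 19p12, proximal and distal 19q13. Over these windows the listed share of the clusters was 7.47% (7.01 to 7.95) of 12023 and the ratio 0.368 (0.345 to 0.392). A stricter measure than the mapping of the reads, which has been used wherever a sequence is called unique below, asks for no other match with up to 3 mismatches. By it all 5 sequences were unique in 25.2% of the cluster windows, against 39.6% in the rest of chromosome 19. This share was 13% in the 19p12 cluster, 28% in the proximal 19q13 cluster and 44.1% in the distal 19q13 cluster, the order of their listed shares. Among windows with all 5 sequences unique, the listed share of the clusters was 8.75% (7.95 to 9.61) of 4458, against 40.5% (40.01 to 41.01) in the rest of the chromosome. Among windows with no unique sequence it was 2.46% (1.75 to 3.45) of 1302, against 12.5% (11.6 to 13.4). The listed share thus moved with unique sequence in both, and the clusters were lower at each number of unique sequences. Set against windows of the same CpG number, GC content and number of unique sequences, the ratio lay between 0.281 and 0.436, the highest where all 5 were unique. Where all 5 were unique, the clusters kept their order. Their listed shares were 4.58% (3.51 to 5.96) in the 19p12, 8.04% (6.58 to 9.77) in the proximal 19q13 and 11.3% (10.0 to 12.6) in the distal 19q13 cluster. The ratios matched in this way were 0.360, 0.412 and 0.466.

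The listed share rose with CpG number and fell again in the class with the most CpG sites, in the clusters as in the rest of the chromosome. Windows without a CpG site were listed in 0.336% of 893 cases in the clusters and in 2.22% of 1665 in the rest. With 5 or 6 sites the shares were 6.24% (5.41 to 7.20) and 24.8% (24.1 to 25.6). With 10 to 14 sites they were 14.4% (12.9 to 16.0) and 49.8% (49.2 to 50.5). The clusters levelled off at 22.1% (19.0 to 25.6) with 15 to 19 sites and 22.0% (18.5 to 26.1) with 20 to 29, whereas the rest of the chromosome went on to 61.5% (60.5 to 62.5) and 67.8% (66.6 to 69.1). With 30 sites or more the shares were 16.4% (12.7 to 20.8) and 46.2% (44.5 to 47.9). The 19p12 cluster stayed at or below 8.79% in all classes and had 2 listed windows among the 77 with 30 sites or more.

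**Figure D1:**
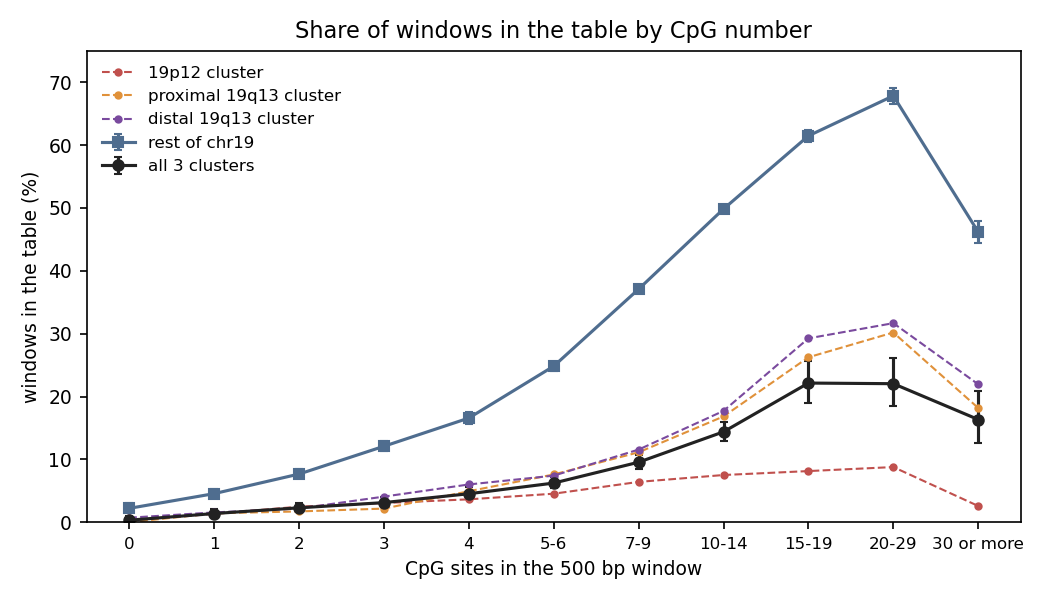
The listed share in percent (y axis) is plotted against the number of CpG sites in the 500 bp window (x axis) for the rest of chromosome 19, for the 3 clusters together and for each cluster, with 95% Wilson intervals as bars on the first pair. The clusters lie below the rest of the chromosome in all classes, and the 19p12 cluster (lowest dashed line in the classes from 5 CpG sites up) does not exceed 8.79%.

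The listed windows were unevenly spread along the clusters. In bins of 100 kb the median listed share was 1.5% in the 19p12 cluster, 6.75% in the proximal 19q13 cluster and 9.5% in the distal 19q13 cluster, against 39.5% in the rest of the chromosome. Of the bins of the rest of chromosome 19, 224 of 469 had a ratio above 1. In the clusters 1 bin of the 19p12 cluster (ratio 1.03, from 23600001 to 23700000, between ZNF91 and ZNF675), none of the proximal 19q13 cluster and 1 of the distal 19q13 cluster (ratio 1.20, from 56600001 to 56700000) did. That last bin, which holds ZNF787 and ZNF444, had a listed share of 60.0%.

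The 19p12 cluster fell into a long stretch with almost no listed windows and a shorter one near the centromere with more. This split was made after the values were seen and is a description. From 20000001 to 23400000, 91 of 6699 windows were listed (1.36%, 1.11 to 1.66, ratio 0.0868), and 13 of the 34 bins of 100 kb had none. From 23400001 to 24400000, 230 of 2000 windows were listed (11.5%, 10.2 to 12.97, ratio 0.739), and the 10 bins ranged from 6% to 16%. The number of CpG sites per window was nearly the same, 4.97 and 4.69, and windows with all sampled sequences unique made up 12.5% and 14.8% (63.2% and 69% by exact match). The centromeric stretch holds ZNF724, ZNF91, ZNF675, ZNF681, ZNF726 and ZNF254, and the other stretch 25 zinc finger genes from ZNF93 to ZNF730.

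**Figure D2:**
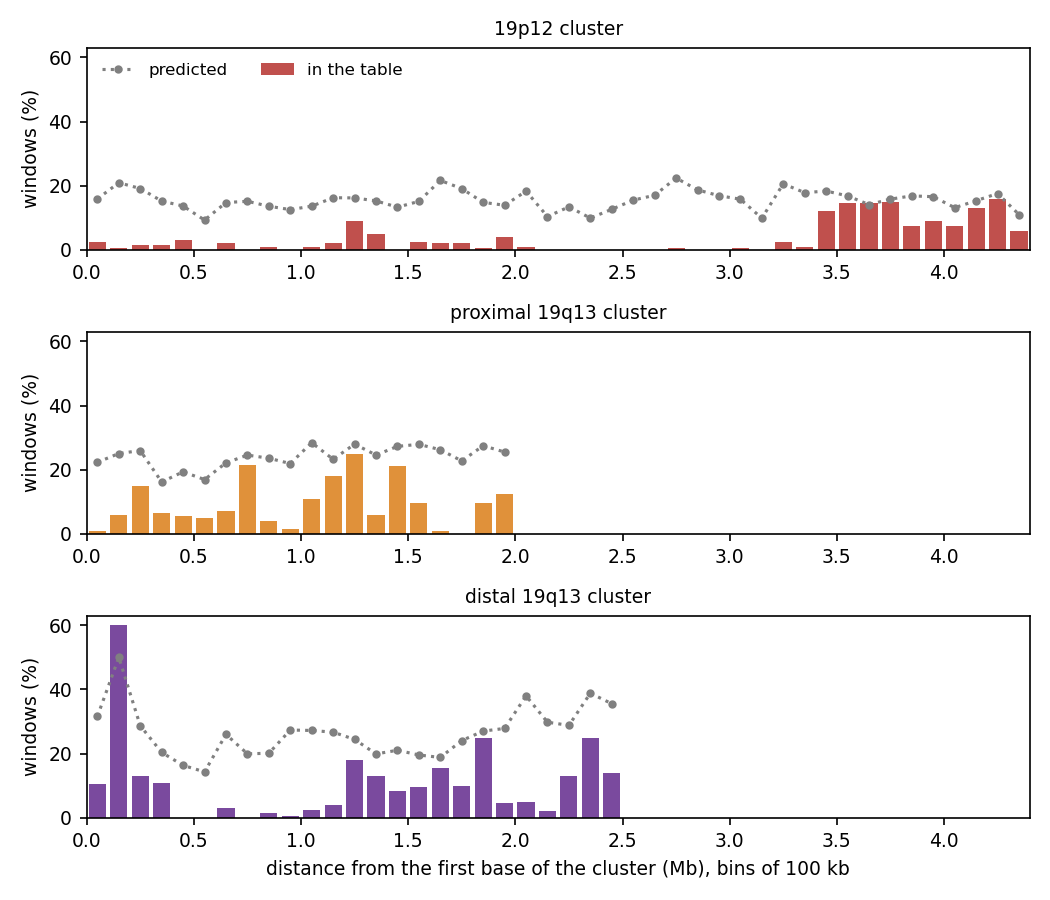
Bars give the listed share in percent (y axis) in bins of 100 kb along each cluster, with distance from the first base of the cluster in Mb on the x axis, and grey points the share predicted from CpG number and GC content. Bars of the 19p12 cluster stay at or below 9% over the first 34 bins and reach 16% in the last 10, and the highest bar of all, 60.0%, is the second bin of the distal 19q13 cluster.

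Long runs without a listed window crossed several genes each. The longest covered 1507 windows (753.5 kb, 22032001 to 22785500) in the 19p12 cluster and contains ZNF208, ZNF257, ZNF676, ZNF729 and ZNF98. In the rest of chromosome 19 the longest such run was 413.5 kb. In the distal 19q13 cluster 506 windows in a row (253 kb, 56896001 to 57149000) were unlisted, over part of ZNF582 and over ZNF583, ZNF667, ZNF471, ZFP28, ZNF470 and ZNF71. This run is not poor in unique sequence, since 67.8% of its windows had all 5 sampled sequences unique, against 15.7% in the run of 753.5 kb. The longest run of the proximal 19q13 cluster was 140 kb (52856001 to 52996000), over ZNF880, ZNF528 and ZNF534 and over parts of ZNF610 and ZNF578. Listed windows came in short runs, with a mean of 1.90 windows against 3.40 in the rest of the chromosome. The longest listed run, 31 windows or 15.5 kb, lay at ZNF787 (56616001 to 56631500).

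The fall of the listed share at the borders was seen outside the regions too. In the 500 kb on the telomere side of the 19p12 cluster 36.1% (33.2 to 39.1) of windows were listed, and in the first 500 kb inside it 1.80% (1.14 to 2.83). The 2 bins of 100 kb just outside this border had 1% and 5.5%, and the next one 46%, so the low share began about 200 kb before the border. At the proximal 19q13 cluster the shares outside and inside were 30.5% and 6.80% on the centromere side and 31.1% and 6.50% on the telomere side. On the centromere side of the distal 19q13 cluster they were 29.6% (26.9 to 32.5) and 18.9% (16.6 to 21.4), and the 2 bins next to the border, outside it, had 2% and 1.5%. Of the 189 listed windows inside, 120 lay in the bin of ZNF787 and ZNF444, and the other bins inside had between 0% and 13%. No step was seen on the telomere side of the distal 19q13 cluster, where 11% (7.38 to 16.1) of the 200 windows outside and 11.8% (9.95 to 13.9) of those inside were listed. On the centromere side of the 19p12 cluster the bin next to the border had 0.500% and the one after it 50.0%, against a prediction of 7.99%.

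Among the genes, 134 protein-coding zinc finger genes lay wholly in the clusters, 31 in the 19p12, 39 in the proximal 19q13 and 64 in the distal 19q13 cluster. Over all windows in these genes the listed share was 7.98% (7.41 to 8.59) with a ratio of 0.379. Zinc finger genes elsewhere on chromosome 19, of which there were 130, had 8.49% (7.89 to 9.12) and a ratio of 0.374, so the low share was not limited to the 3 regions. Other protein-coding genes in the clusters had 11.9% (10.3 to 13.7) and a ratio of 0.469, and other genes in the rest of the chromosome 47.9% (47.5 to 48.4) and a ratio of 1.12. Those of the clusters include unnamed genes that overlap zinc finger genes, and windows in both were counted with the zinc finger genes. Among windows with all sampled sequences unique, the shares of these 4 sets were 8.96%, 9.35%, 15.6% and 55.5%. When the prediction was made from the windows of zinc finger genes in the rest of the chromosome alone, the ratio of the clusters was 0.947 (0.898 to 1.00).

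Of the 134 genes, 121 had at least 20 windows. Their median listed share was 5.26%, with quartiles at 0 and 10.7%, and ranged up to 82.4%. The medians were 1.18% in the 19p12 cluster, 5.66% in the proximal 19q13 cluster and 8.00% in the distal 19q13 cluster. No window was listed in 38 of the 134 genes, 14 in the 19p12, 9 in the proximal 19q13 and 15 in the distal 19q13 cluster. The share exceeded its prediction in 9 of the 121. These counts of genes are not given for genes outside the clusters.

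**Figure D3:**
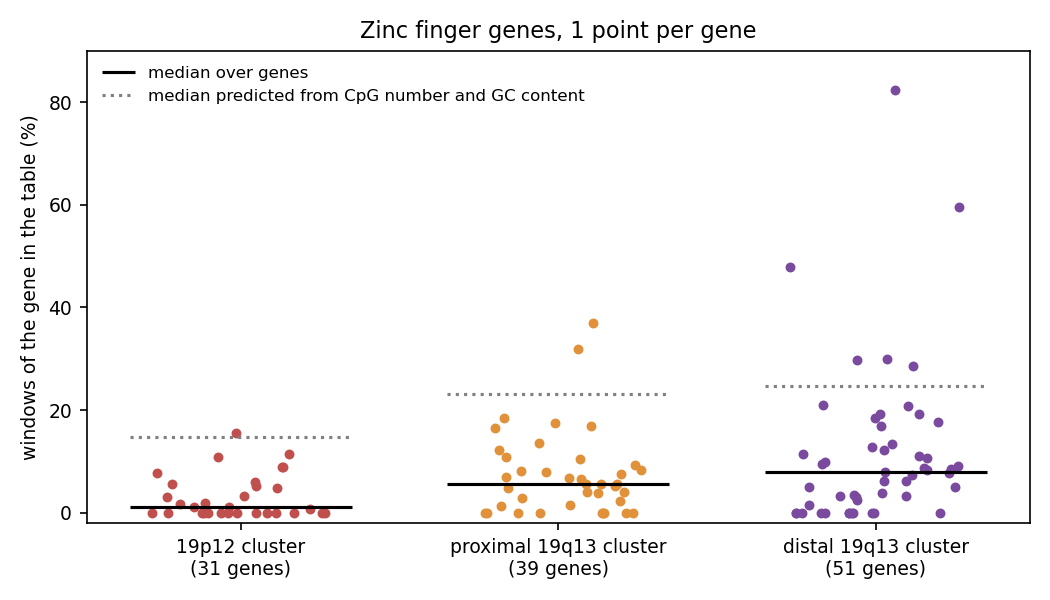
Each point is a zinc finger gene with at least 20 windows, with its listed share in percent on the y axis and the 3 clusters on the x axis. Black lines give the medians (1.18%, 5.66% and 8.00%) and dotted lines the median predicted shares, which lie above the median of the genes in each cluster.

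The 2 genes with the highest listed shares in the distal 19q13 cluster lay near its centromere-side edge. ZNF787, on the minus strand from 56598732 to 56632664, had 56 of 68 windows listed (82.4%, 71.6 to 89.6, predicted 57.7%). ZNF444, on the plus strand from 56643968 to 56672262, had 34 of 57 (59.6%, 46.7 to 71.4, predicted 50.9%). It encodes a protein with a SCAN domain, a dimerization module that some zinc finger proteins carry. Their GC content of 58.6% and 54.1% was above that of the clusters. ZNF552 followed with 11 of 23 windows (47.8%, 29.2 to 67.0, predicted 32.8%), and ZSCAN22 with 9 of 30 (30%, 16.7 to 47.9, predicted 36.2%). Without the 100 kb of ZNF787 and ZNF444 the listed share of the distal 19q13 cluster was 8.71%, below its interval with them.

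In the proximal 19q13 cluster ZNF611 (53206066 to 53238326) had the highest share, 24 of 65 windows (36.9%, 26.2 to 49.1, predicted 28.4%). The readthrough gene ZNF816-ZNF321P had 22 of 69 (31.9%, predicted 30.3%), and ZNF816, which shares windows with it, 5 of 27 (18.5%). ZNF701 had 11 of 63 (17.5%, predicted 29.7%). Only 1.54% of the windows of ZNF611 had all sampled sequences unique, against 28% over its cluster, and by exact match 53.8% against 69.2%.

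In the 19p12 cluster ZNF91 (23487793 to 23578273, minus strand), whose protein represses SVA retroelements, led with 28 of 181 windows (15.5%, 10.9 to 21.4). Its predicted share was 15.4%, giving a ratio of 1.00. ZNF93 (20011722 to 20074273, plus strand), a repressor of L1 retroelements at the other end of the cluster, had 4 of 126 windows (3.17%, 1.24 to 7.88, predicted 17.6%). ZNF675 had 37 of 323 (11.5%), ZNF254 21 of 194 (10.8%) and ZNF100 8 of 90 (8.89%). Of these, ZNF91, ZNF675 and ZNF254 are in the centromeric stretch, ZNF93 and ZNF100 in the other.

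At the low end many genes tied at 0, and those named here are the last of them in alphabetical order. In the 19p12 cluster none of the 60 windows of ZNF737, 98 of ZNF90, 283 of ZNF98 and 64 of ZNF99 was listed. In the proximal 19q13 cluster the same held for ZNF534, ZNF677, ZNF880 and ZNF888, with 32 to 46 windows each. In the distal 19q13 cluster it held for ZNF667 (78 windows), ZNF71 (63), ZNF772 (22) and ZSCAN18 (70). The prediction for these 12 genes ranged from 13.7% for ZNF737 to 36.9% for ZSCAN18.

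Around start sites, the listed share of the zinc finger genes showed a pair of shoulders with a low point between them. In the 134 genes it was 25.4% (18.8 to 33.4) from 1000 to 500 bp upstream, 22.4% (16.2 to 30.2) in the 500 bp upstream and 13.4% (8.67 to 20.2) in the 500 bp downstream. It was 29.1% (22.1 to 37.3) from 500 to 1000 bp and 27.6% (20.7 to 35.7) from 1000 to 1500 bp downstream. Farther out, to 5000 bp on either side, it lay between 6.72% and 11.2%. The low point had the most CpG sites, 32.1 per window, and the highest predicted share, 51.7%, so the ratio there was 0.260, against 0.941 from 1000 to 1500 bp downstream.

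Zinc finger genes elsewhere on the chromosome had a like profile, with 10.8% (6.52 to 17.3) in the 500 bp downstream. In the other genes of chromosome 19 this bin was also the lowest, at 32.3% (29.7 to 35), between shares of 40.6% and 46.5% next to it and of 45.1% to 57.2% farther out. The shoulders of the zinc finger genes therefore stood above their surroundings, whereas those of the other genes were near theirs. Around the 31 start sites of the 19p12 cluster the share was 16.1% (7.09 to 32.6) from 1000 to 500 bp upstream, 9.68% (3.35 to 24.9) from 500 to 1000 bp downstream and 19.4% (9.19 to 36.3) in the next 500 bp. The same bins had 33.3%, 30.8% and 33.3% at the 39 start sites of the proximal 19q13 cluster, and 25%, 37.5% and 28.1% at the 64 of the distal 19q13 cluster. The intervals of the 3 clusters overlapped in these bins, except from 500 to 1000 bp downstream, where that of the distal 19q13 cluster (26.7 to 49.7) lay above that of the 19p12 cluster. In the 500 bp upstream the share was 6.45% (1.79 to 20.7) in the 19p12 and 38.5% (24.9 to 54.1) in the proximal 19q13 cluster, without overlap. In the distal 19q13 cluster it was 20.3% (12.3 to 31.7), which overlapped with both.

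The window that contains the start site was listed in 19 of the 134 genes (14.2%, 9.27 to 21.1), against a predicted 47.6%. It was listed in 20 of 130 zinc finger genes elsewhere (15.4%, 10.2 to 22.6) and in 395 of 1206 other genes (32.8%, 30.2 to 35.5). In the 19p12 cluster the 2 genes were ZNF486 and ZNF254. The 9 of the proximal 19q13 cluster were ZNF766, ZNF701, ZNF611, ZNF600, ZNF816-ZNF321P and ZNF816 (which share the window), ZNF525, ZNF765 and ZNF813. The 8 of the distal 19q13 cluster were ZNF264, ZNF749, ZNF551, ZNF552, ZNF587B, ZNF814, ZNF606 and ZNF446. At start windows with 20 to 29 CpG sites the share was 18.2% (8.61 to 34.4) of 33 zinc finger genes of the clusters and 46.1% (37.3 to 55.2) of 115 other genes, and with 30 or more it was 15.4% (9.03 to 24.99) of 78 and 19.3% (16.6 to 22.4) of 693. With 10 to 19 sites the share was 5.88% (1.05 to 27.0) of 17 and 69.9% (63.3 to 75.8) of 206. With fewer sites it was 0% (0 to 39.0) of 6 and 33.3% (27.05 to 40.3) of 192. The intervals of zinc finger and other genes overlapped with 30 sites or more and with fewer than 10. They did not overlap with 10 to 19 or with 20 to 29 sites, which is a description and no test.

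In the 3000 bp upstream of the start site, which hold 6 windows, at least 1 window was listed in 55 of the 134 genes. At least 4 were listed in ZNF611, ZNF547, ZNF749, ZNF606 and ZSCAN22, and all 6 in none. These counts are not given for genes outside the clusters. By bins of 500 bp, the listed share over these 3000 bp lay between 7.46% and 25.4% in the 134 genes. It lay between 13.1% and 27.7% in zinc finger genes elsewhere on the chromosome and between 40.6% and 54.7% in the other genes.

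Of the 9 genes whose promoters are known to be methylated in tumours, none had a listed start window, and 8 had no listed window in the 3000 bp upstream. These were ZNF582, ZNF671, ZNF154, ZNF132, ZNF677, ZSCAN18, ZNF471 and ZNF667, with 18 CpG sites in the start window of ZNF154 and 64 in that of ZNF667, the fewest and the most. ZIK1 had 2 of 6 upstream windows listed, among them the one shown above, and 31 CpG sites in its start window. Over their whole length ZNF677, ZSCAN18, ZNF132, ZNF471 and ZNF667 had no listed window, ZNF582 had 3 of 36, ZNF671 2 of 16, ZNF154 1 of 26 and ZIK1 6 of 31. Over all 134 zinc finger genes, 19 had a listed start window, 55 a listed window upstream and 38 no listed window at all. A missing window gives no methylation level, and these counts over 9 genes are a description.

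PEG3 and ZIM2 are imprinted genes, expressed from the paternal copy, that share a start site at 57352094 on the minus strand. The start window, with 26 CpG sites, and the 6 windows upstream were not listed. PEG3 had 2 of 61 windows listed (3.28%, 0.904 to 11.2, predicted 26.2%) and ZIM2, which spans PEG3 and more, 2 of 132 (1.52%, 0.416 to 5.36, predicted 19.5%). USP29, the neighbour of PEG3 in the imprinted domain, had 0 of 26.

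Within the zinc finger genes of the clusters, the last coding exon, which encodes the fingers, had a listed share of 3.73% (2.31 to 5.97, 16 of 429 windows). Other exons had 6.05% (4.55 to 8.00) and introns 8.45% (7.82 to 9.12). The ratios were 0.207, 0.322 and 0.393. Over windows unique with up to 3 mismatches the last coding exons had 6.25% (3.32 to 11.5) of 144. This interval takes in the shares of other exons and introns over all windows. Over windows unique by exact match they had 3.86% (2.22 to 6.62) of 311, an interval that lies below the intron share over all windows. Shares of other exons and introns over unique windows alone are not given. In zinc finger genes of the rest of the chromosome the order was the other way, with 14.2% (11 to 18.2) in last coding exons, 9.33% (7.36 to 11.8) in other exons and 8.10% (7.48 to 8.77) in introns. Between genes the listed share was 5.14% (4.68 to 5.64) in the clusters and 25.6% (25.2 to 26.1) in the rest.

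The clusters were unequal in these exons. None of 110 windows was listed in the 19p12 cluster and 1 of 133 in the proximal 19q13 cluster, against 15 of 186 (8.06%, 4.95 to 12.9) in the distal 19q13 cluster. The exons themselves differ, with a mean of 2.43 CpG sites in the 19p12, 5.83 in the proximal 19q13 and 10.97 in the distal 19q13 cluster. Windows with all sampled sequences unique made up 1.82%, 24.1% and 59.1% of them, and by exact match 50%, 74.4% and 84.4%. The predicted shares were 6.72%, 15.04% and 26.8%, all above those found, and the part of unique sequence in the difference between the clusters was not tested. A listed window in the last coding exon was found for 15 genes. These were ZNF765 in the proximal 19q13 cluster and, in the distal 19q13 cluster, ZNF787, ZNF444, ZSCAN5B, ZSCAN5C, ZSCAN5A, ZNF582, ZNF264, ZNF805, ZNF543, ZNF749, ZNF773, ZNF274, ZSCAN22 and ZNF497. The same count is not given for genes outside the clusters. ZSCAN5A, ZSCAN5B and ZSCAN5C are copies of one another that lie side by side, and ZNF274 encodes a KRAB protein known to bind zinc finger exons.

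Windows with the linker were also counted without the gene annotation. TGEKP was encoded on either strand in 379 windows of the clusters (2.14% of them) and in 360 of the rest of the chromosome (0.383%). In the clusters 12 of these were listed (3.17%, 1.82 to 5.45, predicted 15.3%), and in the rest of the chromosome 30 (8.33%, 5.90 to 11.6, predicted 19.3%). All 12 were in the distal 19q13 cluster, which had 85 such windows (14.1%, 8.26 to 23.1), while none of 141 in the 19p12 and of 153 in the proximal 19q13 cluster was listed. The predicted shares were 7.28% in the 19p12, 14.5% in the proximal 19q13 and 30.2% in the distal 19q13 cluster. Mean CpG sites were 2.40, 5.57 and 13.7, and windows with all sampled sequences unique made up 0%, 22.2% and 55.3%. The part of unique sequence in this difference was not tested. In the distal 19q13 cluster windows without a linker had 10.7% (9.87 to 11.6), within the interval of those with it. With at least 3 linkers, as in the exon of ZNF615 shown above, 5 of 169 windows were listed.

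The zinc finger genes of the clusters were divided into 5 parts, without the 2000 bp next to the start. The first part held 702 windows and the last 1235. The listed share went from 9.26% (7.33 to 11.6) in the first part to 5.18% (4.08 to 6.56) in the last. The predicted share fell too, from 22.9% to 16.8%, and the ratios of 0.405 (0.320 to 0.508) and 0.308 (0.242 to 0.390) had intervals that overlap. In zinc finger genes elsewhere it was 8.37% (6.50 to 10.7) and 7.52% (6.14 to 9.18), whose intervals overlap. In the other genes of the chromosome it was 49.5% (48.1 to 50.8) and 52.7% (51.6 to 53.7). Their predicted share rose from 40.1% to 47.4%, so the ratio fell there too. It was 1.23 (1.20 to 1.27) in the first part and 1.11 (1.09 to 1.13) in the last, and these intervals do not overlap.

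The clusters also hold genes of other families, and those named here are examples that follow no set rule. Over the 16 genes without zinc fingers that have a symbol and at least 20 windows, the median listed share was 7.80%, between 0 and 54.2%. SPACA6, known for a role in the fusion of sperm and egg, had 26 of 48 windows listed (54.2%, predicted 42.5%), and PPP2R1A, the scaffold subunit of protein phosphatase 2A, 31 of 118 (26.3%, predicted 31.9%), both in the proximal 19q13 cluster. A1BG, a plasma glycoprotein gene of the distal 19q13 cluster, had 7 of 17 (41.2%, predicted 47.9%). The formyl peptide receptor genes of myeloid cells were lower, with 7 of 118 windows for FPR1 (5.93%), 1 of 37 for FPR2 (2.70%) and 9 of 62 for FPR3 (14.5%). FPR1 overlaps FPR2 and FPR3, so these counts share windows. Of the SIGLEC genes of immune cells, SIGLEC5 had 1 of 39 windows (2.56%), SIGLEC6 0 of 28 and SIGLEC14 0 of 15. NLRP5, a maternal effect gene of the oocyte, had 3 of 124 (2.42%, predicted 31.0%). Listed shares above that of the rest of the chromosome and shares near 0 thus both occurred among the genes without zinc fingers, as among those with them.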

How the data were processed

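FADU libraries of 4 conditions, 1 per condition, had been mapped by the authors to hg19 with Bowtie 0.12.7, keeping reads with up to 3 mismatches and 1 best alignment (no other in the best stratum), and summarised with MEDIPS. The deposited table gives window positions (chromosome, start and stop) and 4 value columns per window. These 4 columns have names that match no label and were not used, so no depth per library is given, and the rule by which windows were kept is not given in the sources used here. Windows of 500 bp were laid on GRCh37 (chromosome 19: 59128983 bp). None of the deposited windows ran past the end of a reference chromosome. In the clusters 101 windows with undetermined bases were left out. Predicted shares came from the rest of chromosome 19, by number of CpG sites (40 or more as 1 class) and GC content in steps of 25 bases. Genes were protein-coding genes of GENCODE version 44 lifted to GRCh37, with canonical transcripts. Zinc finger genes were those with symbols beginning ZNF, ZFP, ZSCAN, ZKSCAN, ZIK, ZIM or ZBTB, and PEG3. A gene counted if wholly inside a cluster, and 1 that crossed a border was left out. Windows were assigned by midpoint. Genes named were the 4 highest and 4 lowest per cluster with at least 20 windows, and fixed lists (methylated in tumours, imprinted, repressors of retroelements). Others are named where a count turned on them, and genes of other families as examples without a set rule. On simulated tables of 111613 windows, factors of 0.35, 0.7 and 1 in the clusters were recovered as 0.350, 0.701 and 0.991 on average. Each window was drawn by itself from the predicted share that was then used to score it. Runs of windows and unique sequence were not simulated, so this checks the arithmetic only. The members, lists and borders were chosen with earlier results of these data known. Analyses ran in Python 3.11.15 with numba 0.67.0, pandas 2.3.3, NumPy 2.4.6, Matplotlib 3.10.9 and SciPy 1.17.1.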

Additional observations from a re-analysis of the deposited data

How the results depend on the processing

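No paired analysis was possible because conditions had no replicates and no value column was tied to a library. No alternative took the ratio of listed to predicted share above 1. The listed share of the clusters (6.96%) was 7.47% over windows unique by exact match, 8.75% over those unique with up to 3 mismatches, 8.53% in and 5.14% outside protein-coding genes, 10.1% without the 19p12 cluster, 6.27% without the proximal and 5.47% without the distal 19q13 cluster, 5.92% with borders 200000 bp inward and 6.35% without the 100 kb with the most listed windows. The ratio (0.338) was 0.368, 0.436, 0.367, 0.301, 0.399, 0.320, 0.299 and 0.302 under the first 8 of these. It was 0.194 with no prediction, 0.285 with CpG number alone and 0.947 with the prediction from zinc finger genes of the rest of the chromosome, and stayed within its interval with the prediction from the other autosomes (0.324) or with unique sequences as a class (0.3498). The share of the 19p12 cluster was 4.15% and 4.58% with unique windows by exact match and with up to 3 mismatches, that of the proximal 19q13 cluster 8.04% with the latter, and that of the distal 19q13 cluster 8.71% without the 100 kb with the most listed windows. Last coding exons had 6.25% with up to 3 mismatches. In all, 12 of 37 values, among them those for start sites and the linker, stayed within the 95% interval of the value reported, or, for the median over genes, within its quartiles, and 25 did not. Settings with up to 3 mismatches, with unique sequences as a class and without the 100 kb were chosen after seeing the data. The cause of these moves was not tested. Only sampled sequences were searched, and no genomic input was analysed here.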
